A study of Homo sapiens with 9 samples.

Results

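Transcripts of 6 genes were measured in EPC2 cells, an esophageal epithelial line immortalised with telomerase reverse transcriptase: the protease inhibitors A2ML1, CST6, CSTA, CSTB and CST3, and LGMN, which encodes legumain, a protease that CST6 inhibits. The 6 were taken by symbol from all deposited tables, where they fill 7 of 29800 transcript rows and are 6 of 24672 genes. RNA came from 3 groups of 3 libraries. The first is called ALI silenced: SPINK7, a Kazal-type serine protease inhibitor gene of squamous epithelium, was silenced, and cells were differentiated with their upper surface in air (air-liquid interface, ALI). The second, ALI control, carried a non-silencing control (NSC) and was differentiated in the same way. The third, monolayer, carried the NSC and was left undifferentiated. The medium of all 3 groups held 1 ng per mL epidermal growth factor and 50 µg per mL pituitary extract. The protocols describe growth to confluence in 0.09 mM calcium for the ALI cells, then 1.8 mM calcium from day 2. Air exposure began on day 7, and RNA was taken on day 14. Calcium level and harvest day are not given for the monolayers. Calcium, air exposure and time in culture therefore cannot be told apart between ALI and monolayer cells. The authors' file names give day 7 for all 6 ALI libraries and, for 5 of them, another number than the sample titles. Group, day and library number are those of the labels here, so the numbers bear on every value given by library. The labels describe 1 silenced population and name neither its construct nor a second one, so loss of SPINK7 and other effects of the silencing treatment cannot be told apart. Whether replicate libraries stem from independent cultures is not stated, so a p-value here reflects only the spread among these libraries, which may be technical. All cells came from 1 line.

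Cystatins are small proteins that plug the active site of papain-like cysteine proteases, the cathepsins. CSTA (cystatin A) and CSTB (cystatin B) are type 1 cystatins that stay inside the cell, and CSTA is also cross-linked into the cornified envelope of keratinocytes. CST3 (cystatin C) and CST6 (cystatin M/E) are secreted type 2 cystatins. CST6 inhibits legumain, cathepsin L and cathepsin V, and in skin this inhibition restrains the activation of transglutaminase 3, an enzyme that builds the envelope. A2ML1 belongs to the alpha-2-macroglobulin family, whose members trap proteases of several classes after these cut a bait region, and it is made in stratified epithelium. Legumain is a lysosomal protease that cuts after asparagine and helps mature the cathepsins.

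The libraries held 8619938 to 14009746 counts (ALI silenced), 7641960 to 9863537 (ALI control) and 9034424 to 12989094 (monolayer). SPINK7, the silenced gene, stood at 20.9 to 38.6 CPM (counts scaled to library size with edgeR's TMM factors) in the ALI silenced libraries, at 225 to 261 CPM in the ALI controls and at 0.212 to 0.744 CPM in the monolayers. Squamous keratins and other epithelial markers summed to at least 28457 CPM in every library, and the leukocyte marker PTPRC had 0 counts. KRT4 and KRT13, keratins of esophageal epithelium, summed to 131 to 210 CPM in the ALI silenced libraries, 402 to 759 CPM in the ALI controls and 1.11 to 1.49 CPM in the monolayers. The 3 markers of simple epithelium summed to 1121 to 1890 CPM in the ALI silenced libraries, 291 to 791 CPM in the ALI controls and 2999 to 3379 CPM in the monolayers. The 5 leukocyte markers summed to 67.0 to 95.2 CPM in the ALI silenced libraries, 53.1 to 70.5 CPM in the ALI controls and 16.3 to 29.3 CPM in the monolayers. Most of this was CD68, a lysosomal membrane protein gene of macrophages, which was called higher in ALI controls than in monolayers (log2 fold change 1.30, adjusted p = 0.00362). The part of these differences in the results below was not tested. The ALI libraries numbered 2 stood apart from the other ALI libraries of both arms on the second principal component, at -25.5 in the silenced arm and -78.5 in the control arm against 14.3 to 55.0. Their proliferation marker MKI67 was at 0.892 CPM (silenced) and 0.756 CPM (control), against 39.6 to 106 CPM in the other ALI libraries. Monolayer libraries 2 and 3 differed by 1.97 times the counting noise (chi-square per degree of freedom over 11049 genes), against 18.4 to 175 times for the other pairs within a group, and were kept as 2 libraries.

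Promoter sequence is shown for the genes in the RefSeq table supplied (GRCh38.p14), which matched 2 of the 6 by symbol, A2ML1 and CST3. These are the gene with the largest and a gene with a small difference between ALI and monolayer cells, and A2ML1 has 2 entries because it has 2 listed starts. Each sequence is the 250 bases before a start, 5′ to 3′ on the gene's strand, with the TATA box letters TATAAA in capitals where they were found.
A2ML1, first start, chr12:8822371-8822620, plus strand: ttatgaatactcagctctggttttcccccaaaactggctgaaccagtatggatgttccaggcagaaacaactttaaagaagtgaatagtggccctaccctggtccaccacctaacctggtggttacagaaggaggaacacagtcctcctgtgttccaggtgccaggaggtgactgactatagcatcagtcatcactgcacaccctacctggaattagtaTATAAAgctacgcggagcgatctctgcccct
A2ML1, second start, chr12:8844754-8845003, plus strand: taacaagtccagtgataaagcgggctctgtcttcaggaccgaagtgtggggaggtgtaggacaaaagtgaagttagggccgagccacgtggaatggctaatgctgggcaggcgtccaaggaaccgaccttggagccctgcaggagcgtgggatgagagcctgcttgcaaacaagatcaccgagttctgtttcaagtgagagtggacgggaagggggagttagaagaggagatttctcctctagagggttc
CST3, chr20:23637956-23638205, minus strand: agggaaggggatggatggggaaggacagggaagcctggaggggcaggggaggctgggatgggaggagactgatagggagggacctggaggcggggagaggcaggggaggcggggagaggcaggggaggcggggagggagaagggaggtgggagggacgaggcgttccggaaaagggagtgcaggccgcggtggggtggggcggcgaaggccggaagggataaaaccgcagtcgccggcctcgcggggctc
The first A2ML1 sequence held TATAAA from position -31 relative to the start, letters found on either strand in 10.7% of 35116 promoters of the table in the same window. The second A2ML1 sequence and the CST3 sequence held none. Of the bases after each start, 0 were found at the start of a GENCODE transcript for the first A2ML1 entry, 50 for the second and 40 for CST3. Whether transcription begins at the first A2ML1 start in these cells was not tested. Searched on both strands, the letters TGANTCA (AP-1, in 6.57% of promoters), AACCNGTT (grainyhead-like factors, 1.49%) and a pair of GAAA 2 bases apart (interferon-stimulated response, 3.02%) were in none of the 3. Bases G and C made up 49.2% of the first A2ML1 sequence, 54.4% of the second and 70.8% of the CST3 sequence, with a median of 58.0% over the table.

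Differentiation at the ALI was accompanied by higher levels of all 5 inhibitors, by between 1.86-fold and 228-fold, while LGMN did not pass the test. In the edgeR quasi-likelihood test over 12806 genes, 5 of the 6 genes rose in ALI control cells over monolayers and none fell. The background was large, since 40.5% of all genes tested were called, 20.3% higher and 20.2% lower. The calls numbered 2602 higher and 2586 lower genes, or 1928 higher and 3372 lower on the authors' RPKM with a pseudocount of 1. The median log2 fold change was 4.92 over the 6 genes and 0.03 over all genes tested. The 6 genes and the gene lists below were chosen with earlier results of these data known. Their counts set against the background are therefore descriptions. In bulk RNA, more cells that make a transcript and more RNA per cell cannot be told apart.

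A2ML1 (chromosome 12, 8975150 to 9029381, plus strand, hg19) showed the largest difference of the 6. ALI control libraries 1, 2 and 3 held 2097, 935 and 2207 CPM of it, and monolayers 1, 2 and 3 held 8.35, 7.08 and 7.44 CPM. The lowest control, library 2, was still far above every monolayer. The log2 fold change was 7.84 (SE 0.45, 95% interval 6.84 to 8.83, adjusted p = 1.74e-06), and 1.55% of the genes tested had a larger absolute change.

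CST6 (chromosome 11, 65779462 to 65780976, plus strand), the secreted inhibitor of legumain, had very few counts in the monolayers only. It was at 20.1, 28.6 and 23.6 CPM in the ALI controls and at 0.425, 0.303 and 0.213 CPM in the monolayers, which rest on 6, 3 and 2 counts. Every ALI control library was above every monolayer, and the difference was 6.16 on a log2 scale (SE 0.36, adjusted p = 1.82e-06). With so few monolayer counts, the fold depends on the pseudocount, and it was 4.46 on log2(RPKM + 1). CST6 passed the low-count filter only through ALI libraries.

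CSTA (chromosome 3, 122044011 to 122060815, plus strand), the cystatin of the cornified envelope, was at 3183, 5479 and 2721 CPM in the ALI controls and 74.6, 68.1 and 69.1 CPM in the monolayers. Control library 2 was the highest here, the reverse of its place for A2ML1. The log2 fold change was 5.75 (SE 0.44, adjusted p = 9.86e-06).

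CSTB (chromosome 21, 45193546 to 45196256, minus strand), the other intracellular cystatin, was at 2967, 2682 and 2964 CPM in the ALI controls and at 147, 174 and 181 CPM in the monolayers. The controls lay close together, and the groups did not overlap. CSTB was 17.2-fold higher in the ALI controls (log2 fold change 4.10, SE 0.27, adjusted p = 4.41e-06).

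CST3 (chromosome 20, 23614294 to 23618574, minus strand), the secreted cystatin made by most cell types, differed less. It was at 224, 188 and 282 CPM in the ALI controls and at 88.2, 135 and 150 CPM in the monolayers, with no overlap. The log2 fold change of 0.90 (SE 0.28, 95% interval 0.28 to 1.51) passed the test (adjusted p = 0.0262). That call was lost without ALI control library 1 (adjusted p = 0.0525) or 3 (0.0736), without monolayer library 1 (0.101) or 2 (0.0653), with monolayers 2 and 3 summed (0.0533), and on log2(RPKM + 1) (0.0759) or log2(RPKM + 0.1) (0.0754). Over its 20 alternatives the adjusted p ran from 0.00266 to 0.101.

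LGMN (chromosome 14, 93170152 to 93215047, minus strand) was at 45.1, 22.6 and 41.6 CPM in the ALI controls and at 36.6, 37.3 and 38.9 CPM in the monolayers. The monolayers lay inside the range of the controls, where library 2 was the low one. The log2 fold change was -0.05 (95% interval -0.64 to 0.55, adjusted p = 0.909), and it was 0.21 without both ALI libraries numbered 2 (adjusted p = 0.345). Ranges of ALI control and monolayer libraries were apart for 5 of the 6 genes, all higher, against 27.3% of all genes tested that were apart and higher and 29.9% that were apart and lower.

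**Figure D1:**
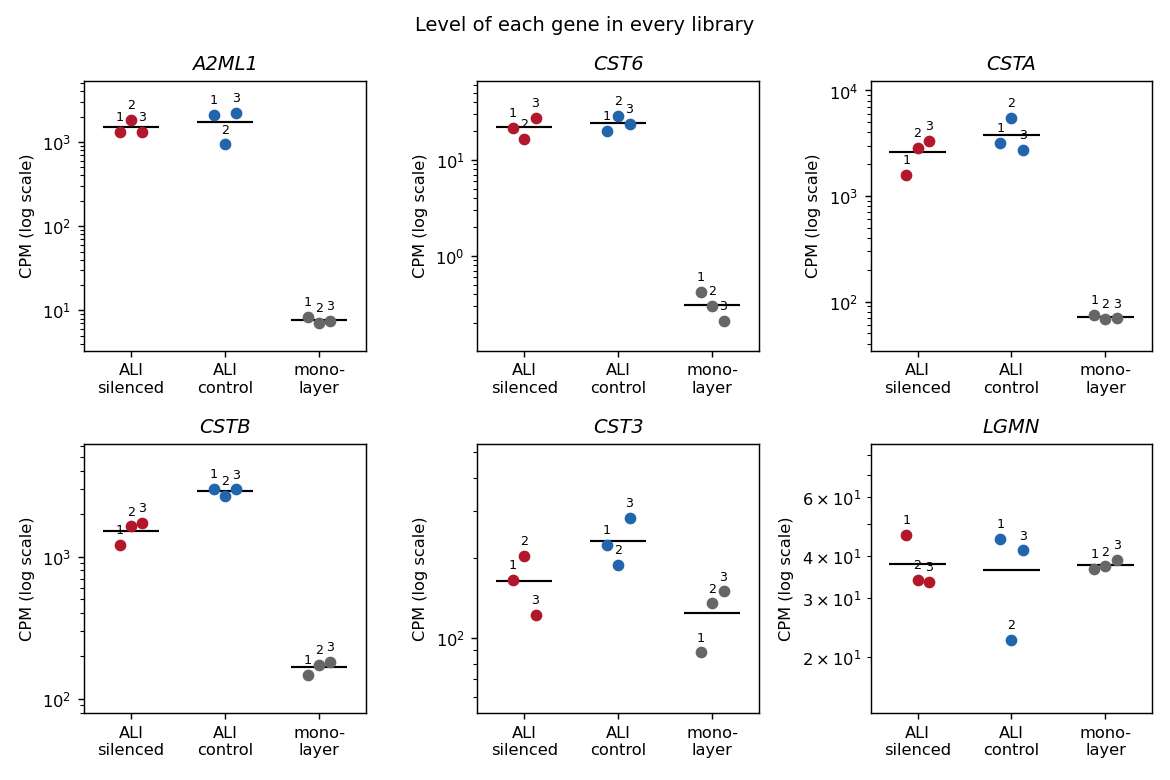
CPM of each gene (y axis, log scale) in the 3 libraries of each group (points, numbered by library; black bars are group means). A2ML1, CST6, CSTA and CSTB lie above the monolayers without overlap in both ALI groups, CSTB is apart between the ALI groups at 1208 to 1728 CPM (silenced) and 2682 to 2967 CPM (control), and LGMN overlaps throughout.

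Silencing of SPINK7 left none of the 6 genes past the test. In edgeR, 0 of 6 were called, against a background of 0.929% of 12806 genes (29 or 0.226% higher and 90 or 0.703% lower). Of the 6, 1, CSTB, had an unadjusted p under 0.05, a threshold for which the share over all genes is not given here. The DESeq2 Wald test called 1 of 6, CSTB, while it called 137 genes higher and 280 lower over all genes. With limma-voom 0 of the 6 were called. The median log2 fold change of the 6 was -0.37, against 0.01 over all genes tested. CPM ranges of the groups were apart for 1 of the 6, which was lower, while 6.35% of all genes tested were apart and lower and 5.75% apart and higher. Together the 6 genes took 0.423, 0.683 and 0.650% of the counts in ALI silenced libraries 1, 2 and 3, against 0.834, 0.848 and 0.791% in the ALI controls and 0.0386, 0.0434 and 0.0465% in the monolayers.

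CSTB had the largest difference of the 6 between the ALI groups. Its level was 1208, 1628 and 1728 CPM in the silenced libraries and 2967, 2682 and 2964 CPM in the controls. Every silenced library was below every control, at 53.0% of the control level in the fit. The log2 fold change was -0.92 (SE 0.24, 95% interval -1.46 to -0.38), with an unadjusted p of 0.00350 and an adjusted p of 0.139 in edgeR. The adjusted p was 0.0264 without both ALI libraries numbered 2 (log2 fold change -1.01) and 0.000802 with DESeq2 (-0.93), and it ran from 0.000802 to 0.569 over 20 alternatives, 2 of which passed. Both of these called more genes than the fit reported. Without both libraries numbered 2, 280 genes were called higher and 428 lower over all genes.

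CSTA stood at 1572, 2865 and 3321 CPM in the silenced libraries and at 3183, 5479 and 2721 CPM in the controls. The groups overlapped, and the log2 fold change of -0.55 (95% interval -1.34 to 0.24) had an adjusted p of 0.696. Leaving out both ALI libraries numbered 2 brought it to -0.27 (adjusted p = 0.747). CST3 was at 166, 203 and 122 CPM in the silenced libraries and at 224, 188 and 282 CPM in the controls, again overlapping (log2 fold change -0.50, 95% interval -1.11 to 0.11, adjusted p = 0.636). With those libraries left out, CST3 was at -0.81 (adjusted p = 0.0982). A2ML1 was at 1314, 1825 and 1320 CPM in the silenced libraries and at 2097, 935 and 2207 CPM in the controls. All 3 silenced libraries lay inside the range of the controls, and the log2 fold change was -0.23 (95% interval -0.97 to 0.50, adjusted p = 0.845). Without ALI control library 2, the low one, it was -0.53, and with ALI libraries 2 of both arms left out it was -0.71 (adjusted p = 0.0617).

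CST6 was at 21.6, 16.5 and 27.0 CPM in the silenced libraries and at 20.1, 28.6 and 23.6 CPM in the controls, and the groups overlapped. Its log2 fold change was -0.15 (95% interval -0.71 to 0.40, adjusted p = 0.865) and turned to 0.15 without both ALI libraries numbered 2. LGMN was at 46.4, 34.0 and 33.5 CPM in the silenced libraries and at 45.1, 22.6 and 41.6 CPM in the controls (log2 fold change 0.06, 95% interval -0.54 to 0.66, adjusted p = 0.958). A p-value that misses the threshold does not show that these levels were alike. The 95% intervals give the differences that the libraries allow. That of CSTA reached -1.34, and that of CSTB, which also missed the threshold, ran from -1.46 to -0.38.

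**Figure D2:**
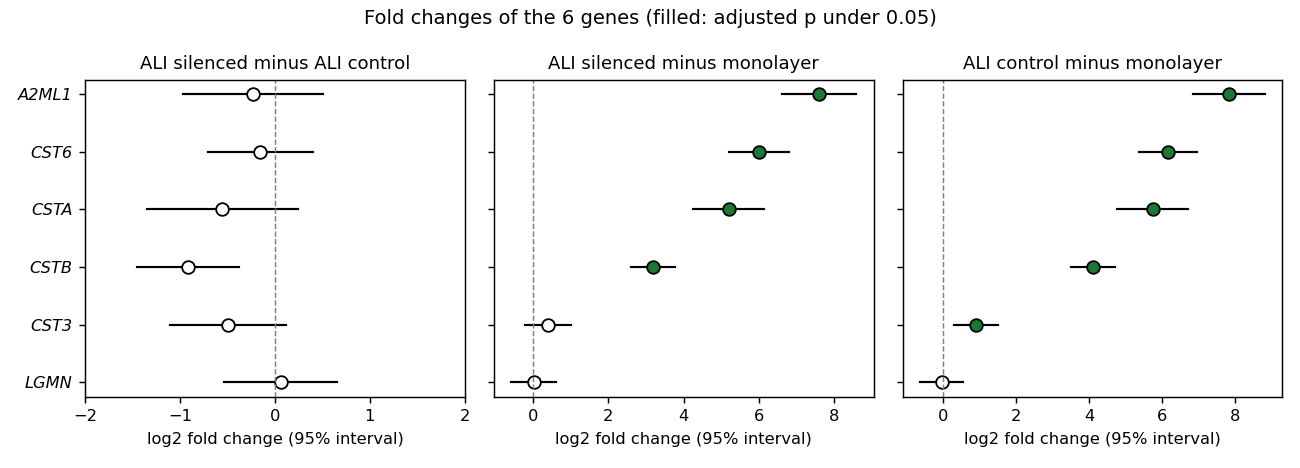
Log2 fold change (points) with 95% interval (lines) of each gene in 3 contrasts, filled where the adjusted p is under 0.05; the x axes differ. No gene is filled for ALI silenced minus ALI control, 4 are for ALI silenced minus monolayer, and 5 are for ALI control minus monolayer.

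**Figure D3:**
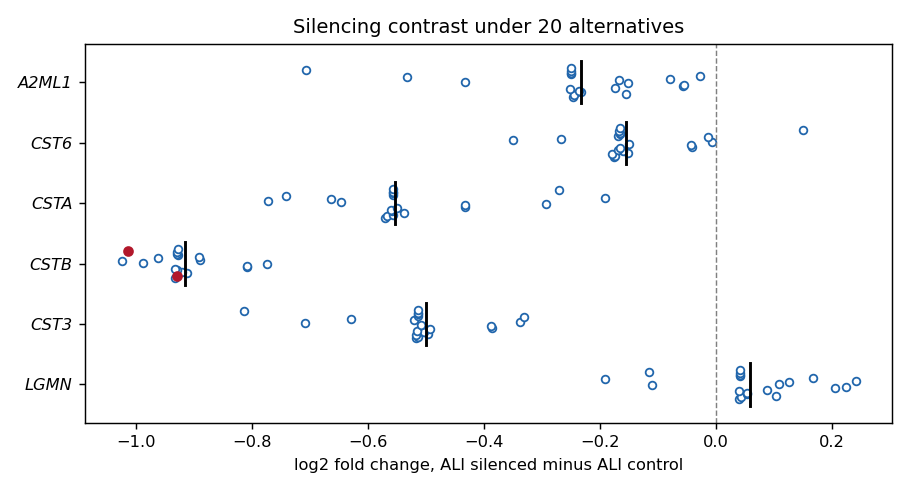
Log2 fold change of ALI silenced minus ALI control (x axis) for each gene under 20 alternative settings (circles; red and filled where the adjusted p is under 0.05) and in the fit reported (black bars). Only CSTB has filled circles, 2 of them, and all of its values lie between -1.03 and -0.77, whereas CST6 and LGMN have values on both sides of 0.

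Silenced ALI cells were also set against the monolayers, a comparison that shares libraries with both others. A2ML1, CST6, CSTA and CSTB rose, and 4 of the 6 genes were called higher, and their ranges were apart. Of all genes tested, 31.7% were called, 15.8% higher and 15.9% lower, and 28.0% were apart and higher and 27.7% apart and lower. The log2 fold changes over the monolayers were 7.60 in silenced ALI cells and 7.84 in ALI controls for A2ML1, 6.00 and 6.16 for CST6, 5.19 and 5.75 for CSTA, and 3.19 and 4.10 for CSTB. CST3 gave 0.40 in silenced ALI cells (95% interval -0.21 to 1.01, adjusted p = 0.294), and its silenced libraries overlapped the monolayers, which stood at 88.2 to 150 CPM. LGMN gave 0.01 (95% interval -0.58 to 0.61).

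Levels can be compared between genes only per length, by RPKM (reads scaled to transcript length and library size) of the authors' tables, summed over the rows of a gene. In the ALI silenced libraries CSTA led at 2709 ± 969 RPKM (SD, n = 3), followed by CSTB at 1401 ± 268, A2ML1 at 251 ± 53.7, CST3 at 183 ± 47.1, CST6 at 30.7 ± 7.29 and LGMN at 16.0 ± 2.83 RPKM. The order was the same in the ALI controls, at 3582 ± 1106, 2437 ± 308, 279 ± 123, 240 ± 62.8, 31.2 ± 3.58 and 14.3 ± 5.50 RPKM. In both ALI groups the ranges of A2ML1 and CST3 overlapped, and no other neighbours in the order did. The monolayers had another order. There CSTB (160 ± 18.3 RPKM) and CST3 (144 ± 38.1 RPKM) overlapped at the top, then came CSTA (76.8 ± 3.38), LGMN (16.5 ± 0.650), A2ML1 (1.38 ± 0.119) and CST6 (0.462 ± 0.154 RPKM). LGMN thus ranked above A2ML1 and CST6 in monolayers and below both in ALI cells.

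Ratios of RPKM within a library do not depend on how libraries are scaled. The ratio of CST6 to LGMN was 1.57, 1.63 and 2.72 in the ALI silenced libraries, 1.50, 4.26 and 1.91 in the ALI controls, and 0.0392, 0.0274 and 0.0184 in the monolayers. It was above 1 in every ALI library and below 1 in every monolayer. Between ALI controls and monolayers the log2 ratio differed by 6.41 (two-sided exact permutation test, p = 0.1, the smallest that 3 against 3 libraries allow, and 0.2 with Benjamini-Hochberg adjustment over 12 such ratio tests). The 2 ALI groups overlapped, differing by -0.27 (exact p = 0.7), a difference that turned to 0.29 without both ALI libraries numbered 2.

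The proportion of the intracellular cystatins was apart between ALI and monolayer libraries. The CSTA to CSTB ratio was 1.48, 2.00 and 2.18 in the ALI silenced libraries, 1.22, 2.32 and 1.04 in the ALI controls, and 0.578, 0.445 and 0.434 in the monolayers. CSTB was thus ahead in the monolayers and CSTA in every ALI library, with a difference of the log2 ratio of 1.58 between ALI controls and monolayers (exact p = 0.1) and of 0.38 between silenced and control ALI libraries (exact p = 0.4). Without both ALI libraries numbered 2, silenced and control ALI libraries no longer overlapped, and differed by 0.67 (exact p = 0.333, the smallest that 2 against 2 allow). CST3 exceeded LGMN in every library, by 9.47 to 15.8 times in the ALI silenced libraries, 13.2 to 22.0 times in the ALI controls and 6.40 to 10.2 times in the monolayers. The ratio of CSTA to CTSL2, the cathepsin V gene, was 7.80, 14.8 and 12.1 in the ALI silenced libraries and 22.9, 33.8 and 21.2 in the ALI controls, without overlap (difference of the log2 ratio -1.19, exact p = 0.1, adjusted 0.2). The monolayers, at 14.3 to 28.4, overlapped both.

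A2ML1 filled 2 rows of the tables, a coding transcript (NM_144670) and a non-coding one (NR_046256) that starts 22450 bases downstream in hg19 and shares its end. The 2 promoter entries shown above lie 22383 bases apart in GRCh38, another distance, so they need not be the starts of these 2 rows. How reads shared by both transcripts were divided is not given in the sources used here. The non-coding row held 96, 842 and 525 counts in ALI silenced libraries 1, 2 and 3, or 8.96, 57.8 and 61.4 CPM, against 784, 1026 and 1086 counts or 105, 129 and 115 CPM in the ALI controls. All silenced libraries were below all controls, and silenced library 1 was by far the lowest. Of all genes tested, 6.35% were apart and lower on silencing, a share not given for single rows. The level of this row was not tested. As a share of the A2ML1 counts, the row had 0.682% (95% Wilson interval 0.559 to 0.832), 3.17% (2.96 to 3.38) and 4.65% (4.28 to 5.05) in the silenced libraries. The shares were 5.01% (4.67 to 5.36), 13.8% (13.1 to 14.6) and 5.20% (4.90 to 5.51) in the controls. These intervals cover counting error only. The mean share was 2.83% in silenced and 8.01% in control libraries (two-sided exact permutation test, p = 0.1, the smallest possible). The control mean rests on library 2. Without it the means were 2.83% in silenced and 5.10% in control libraries (exact p = 0.2). Without both ALI libraries numbered 2 they were 2.67% in silenced and 5.10% in control libraries (exact p = 0.333). Each p is the smallest that so few libraries allow. The groups stayed apart in both settings, which were chosen after seeing the data. The monolayers had 14, 8 and 0 counts in this row of 118, 70 and 70 in all. The coding row alone, at 1305, 1767 and 1259 CPM in the silenced libraries and 1992, 805 and 2093 CPM in the controls, overlapped between the ALI groups.

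**Figure D4:**
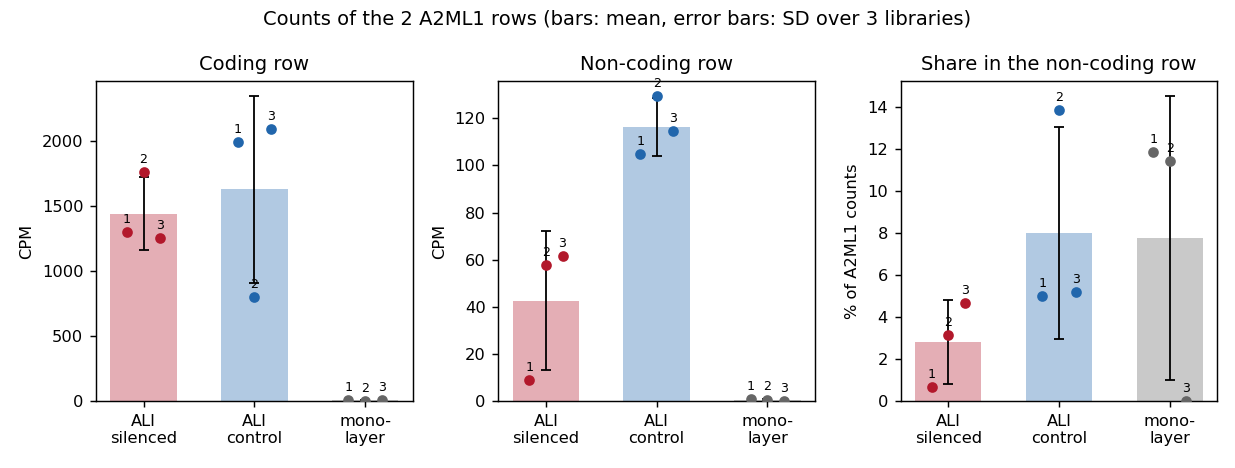
Level (CPM) of the coding and the non-coding A2ML1 row, and the percentage of A2ML1 counts in the non-coding row, in the 3 groups (points are libraries, numbered; bars are means and error bars the SD over 3 libraries). The non-coding row is at 8.96 to 61.4 CPM in the silenced libraries and 105 to 129 CPM in the controls, while the coding row overlaps.

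Of 10 tested cysteine cathepsins, the proteases that cystatins inhibit, 2 rose, 2 fell and 6 were not called in ALI controls over monolayers, with a median log2 fold change of -0.28. These counts are at the background, 20.3% higher and 20.2% lower over all genes tested. CTSL2 (cathepsin V, a target of CST6) was at 755, 887 and 702 CPM in the ALI controls and at 28.4, 12.7 and 14.5 CPM in the monolayers, and rose by 5.39 on the log2 scale (adjusted p = 7.27e-06). CTSC, which activates granule serine proteases, rose by 2.09 (adjusted p = 0.00123). CTSF (-2.18, adjusted p = 0.00498) and CTSZ (-1.70, adjusted p = 0.000177) fell. The lysosomal cathepsins L and B gave 0.05 (CTSL1, adjusted p = 0.943) and -0.14 (CTSB, adjusted p = 0.718). CTSL1 differed within both ALI groups, at 56.5, 126 and 54.7 CPM in the silenced and 47.1, 136 and 57.5 CPM in the control libraries. Without both ALI libraries numbered 2, CTSL1 fell by 0.57 on the log2 scale (adjusted p = 0.00984), and 6 cysteine cathepsins were lower in place of 2. The share of all genes called lower in that setting is not given here, so the 6 cannot be set against a background.

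None of these 10 cathepsins passed the test on silencing in edgeR (median log2 fold change -0.14), where 0.929% of all genes tested were called. CTSL2 was at 1100, 1061 and 1503 CPM in the silenced libraries and at 755, 887 and 702 CPM in the controls, all higher, with a log2 fold change of 0.64 (95% interval -0.07 to 1.35) and an adjusted p of 0.584. Neither tested gene among the other cathepsins, CTSA and CTSD, was called in either contrast.

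In the pathway that CST6 is known to restrain in skin, 5 of 7 genes rose with differentiation and none fell, with a median of 6.98, against 20.3% higher over all genes tested. Besides CTSL2 these were the transglutaminases TGM1 (7.76, adjusted p = 2.03e-06) and TGM3 (6.98, adjusted p = 2.76e-05) and the envelope proteins involucrin (IVL, 8.51, adjusted p = 4.30e-06) and loricrin (LOR). LOR had 0 counts in the monolayers and was at least 551-fold higher in the ALI controls, against a floor of 3 counts over the monolayer group. LGMN and CTSL1 are the other members of this list. The list was chosen with earlier results of these data known, so its counts are descriptions. TGM3 and LOR passed the low-count filter only through ALI libraries. On silencing, 1 of the 7 fell, LOR, against 0.703% called lower over all genes tested. LOR was at 2.24, 1.92 and 4.68 CPM in the silenced libraries against 53.6, 30.4 and 62.2 CPM in the controls. The groups did not overlap (log2 fold change -4.07, adjusted p = 0.00719). TGM3 was at 17.1, 26.4 and 25.3 CPM in the silenced libraries and at 34.5, 14.2 and 35.5 CPM in the controls, where library 2 was again the low one (-0.29, adjusted p = 0.845). Without both ALI libraries numbered 2 its groups were apart and it was at -0.73 (adjusted p = 0.203). IVL, at -1.11 (adjusted p = 0.331), passed in 2 of 20 alternatives, over which the adjusted p ran from 0.00375 to 0.684. It fell by 1.16 without both ALI libraries numbered 2 (adjusted p = 0.00375) and by 1.44 without ALI control library 2 (adjusted p = 0.0488). The first of these fits called 280 genes higher and 428 lower over all genes.

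Of 14 other listed genes of the cystatin superfamily, 1 had enough counts to be tested, FETUB, whose product fetuin B inhibits astacin-type metalloproteases in mouse. FETUB passed the low-count filter only through the ALI controls, and that filter favours genes higher there. Its direction in both contrasts is thus a description. The other 13 listed had at most 15 counts over all 9 libraries each, the salivary cystatins CST1, CST2, CST4 and CST5 at most 1. ALI silenced libraries held 0.467, 0.275 and 0.936 CPM of FETUB, and it was at 31.5, 5.80 and 38.2 CPM in the ALI controls, and at 0 counts in the monolayers. All silenced libraries were below all controls (log2 fold change -5.55, SE 0.81, adjusted p = 0.0234), a call lost without any 1 silenced library (0.126, 0.0519 and 0.102 for libraries 1, 2 and 3), without control library 1 (0.0928) or 3 (0.0794), or with limma-voom (0.0512). Over its 20 alternatives the adjusted p ran from 3.50e-11 to 0.126. FETUB was at least 288-fold higher in ALI controls than in monolayers, against the same floor.

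CD109, a membrane-bound relative of A2ML1, fell with differentiation by 1.48 on the log2 scale (adjusted p = 0.000997), at 148, 133 and 121 CPM in the ALI controls and 499, 312 and 310 CPM in the monolayers. A2M itself, alpha-2-macroglobulin, had 13 counts in all 9 libraries. LRP1, the endocytic receptor that clears alpha-2-macroglobulins with trapped protease, also fell, at 23.3, 10.1 and 27.4 CPM in the ALI controls and 576, 420 and 375 CPM in the monolayers (log2 fold change -4.49, adjusted p = 6.98e-05). LRP1 was at 51.4, 38.4 and 19.5 CPM in the ALI silenced libraries, and neither gene was called on silencing (CD109 0.08, adjusted p = 0.927; LRP1 0.85, adjusted p = 0.582).

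All 4 listed kallikreins of the cornified layer rose with differentiation, against 20.3% called higher over all genes tested. This list, too, was chosen with earlier results known, and KLK7 and KLK14 passed the low-count filter only through ALI libraries. KLK7, the chymotrypsin-like enzyme of that layer, was at 628, 740 and 840 CPM in silenced ALI cells, at 393, 252 and 418 CPM in ALI controls, and at 1.56, 0.607 and 0.957 CPM in the monolayers. It rose by 8.35 on the log2 scale over the monolayers (adjusted p = 9.59e-07). On silencing KLK7 was higher in every library, but its log2 fold change of 1.05 had an adjusted p of 0.167 (over alternatives 0.0140 to 0.479), and none of the 4 passed. KLK5, at 1.45 (adjusted p = 0.0658), passed in 6 of 20 alternatives, among them the fits without both ALI libraries numbered 2 (adjusted p = 0.0237) and without monolayer library 1 (0.0251), with a range of 0.000446 to 0.251. KLK14, with 0 counts in the monolayers, was at least 18.4-fold higher in ALI controls.

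Of 16 genes of the lysosome, where legumain and most cathepsins work, 2 rose and 6 fell with differentiation (median -0.28). The total is near the background, where 40.5% of all genes tested were called, 20.3% higher and 20.2% lower. GAA, acid alpha-glucosidase, fell by 1.59 (adjusted p = 0.00428). The ceramidase ASAH1 gave 1.07 (adjusted p = 0.0368, lost in 8 of 20 alternatives, among them the fits without ALI control library 1 or 2 or without any 1 monolayer library, over alternatives 0.00495 to 0.108). PSAP, the saposin precursor, fell by 1.17 (adjusted p = 0.00799). On silencing 1 of the 16 fell, HEXA, a hexosaminidase subunit, against 0.703% called lower over all genes tested. HEXA was at 6.91, 11.7 and 7.84 CPM in the silenced libraries against 27.2, 55.8 and 41.5 CPM in the controls, without overlap (-2.23 on the log2 scale, adjusted p = 0.0111). That call was lost without silenced library 1 (0.0645) or 3 (0.0691).

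**Figure D5:**
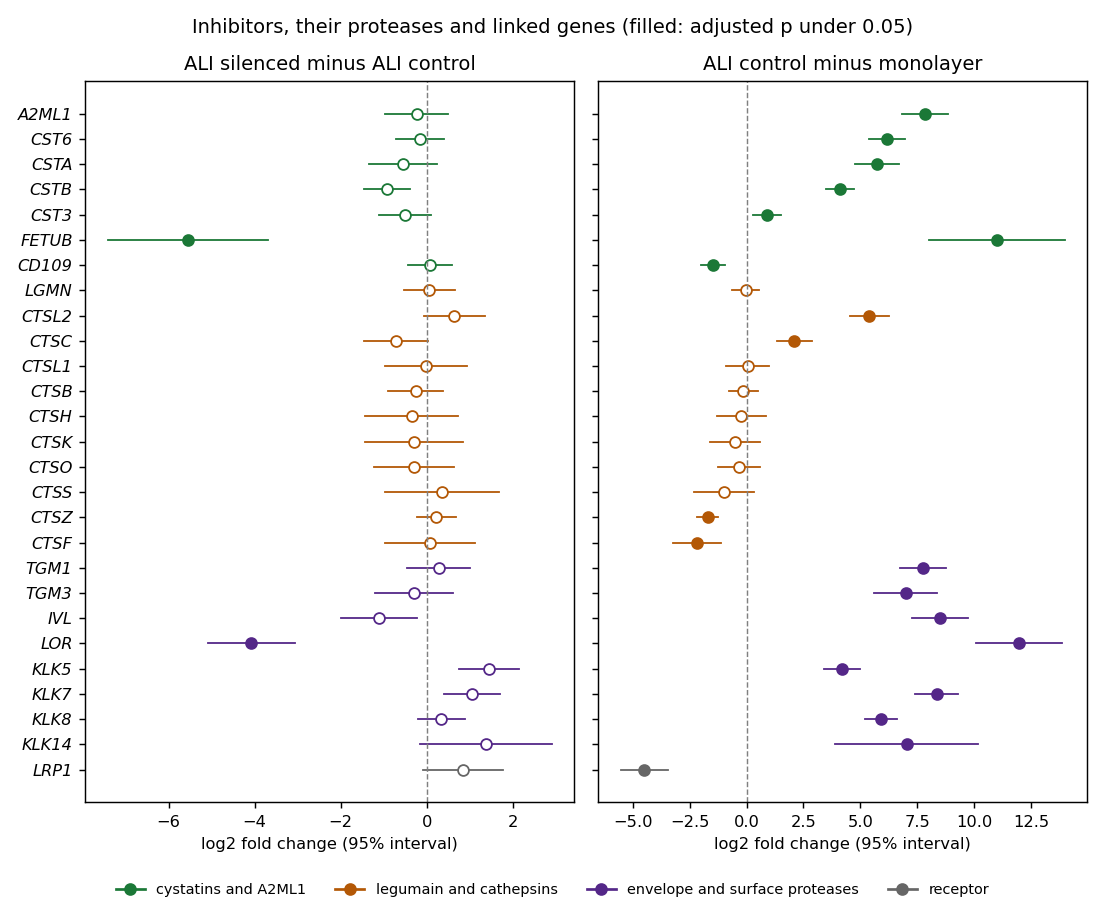
Log2 fold change (points) with 95% interval (lines) of the inhibitors, their proteases and linked genes in ALI silenced minus ALI control and in ALI control minus monolayer, filled where the adjusted p is under 0.05; the x axes differ. FETUB and LOR are the 2 filled genes on silencing, and for FETUB, LOR and KLK14 the values over the monolayers are fitted against 0 counts. FETUB passed the low-count filter only through the ALI controls.

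Genes with the pattern most like each of the 6 were found by the root mean square difference of centred log2 CPM over the 9 libraries, among 9179 genes of at least 10 CPM on average. These are descriptions, in which the 3 groups dominate. Nearest to A2ML1 was TGM1, the transglutaminase of the envelope, at a difference of 0.29, followed by CDH16 (0.29) and SPNS2 (0.31). ALI silenced libraries held 489, 630 and 429 CPM of TGM1, and it was at 463, 226 and 585 CPM in the ALI controls and at 1.56, 2.22 and 2.13 CPM in the monolayers, and like A2ML1 it was lowest among ALI libraries in control library 2. Nearest to CSTB was GLTP, a glycolipid transfer protein gene (0.21), at 548, 720 and 811 CPM in the silenced libraries and 1194, 940 and 887 CPM in the controls. Nearest to CSTA was LPHN2 (0.36), with CST6 in second place (0.40). CST6 itself was nearest to SERPINB2 (0.31), an intracellular serine protease inhibitor gene. CST3 was nearest to POLD4 (0.15) and LGMN to GMEB2 (0.09).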

How the data were processed

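RNA of 9 EPC2 libraries was polyA-selected and sequenced with a stranded protocol, per the labels' protocols. Per the submitters' processing notes, the build was hg19, and STAR 2.4.2a, Bowtie and MACS2 are listed with no role. Which program counted reads, and whether it used strand, is not given in the sources used here. No other row of the tables overlaps the rows of the 6 genes. The deposited tables hold whole-number counts per RefSeq transcript row, not normalized, and RPKM made by the authors. Counts were summed per symbol and chromosome, which gave 24672 genes. Rows that name several genes held 0.411 to 0.554% of the counts.

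Tests used edgeR 4.0.16 in R 4.3.3: TMM scaling, filterByExpr (12806 genes kept, all 6 genes among them) and a robust quasi-likelihood fit over 9 libraries with 6 residual degrees of freedom. Adjusted p-values are Benjamini-Hochberg over all genes tested in a contrast, and 0.05 was the threshold. Each standard error is the absolute log2 fold change over the root of F, and 95% intervals use the total degrees of freedom of that test. Exact permutation tests used SciPy 1.17.1. The alternatives were DESeq2 1.42.0 (its size factors, and its Wald test), limma-voom (limma 3.58.1), 2 other low-count filters, a fit on 2 groups, the replicate number as a block, log2(RPKM) with a pseudocount of 1 or 0.1, and left-out or summed libraries. The fit was tested on simulated data. The members and the gene lists were chosen with earlier results of these data known. Genes named beside the 6 are up to 4 per list and contrast with the largest change among those that passed, a few fixed targets and relatives, and the 3 genes most alike to each of the 6. A planned comparison of the proteins, which needs protein sequences, was not made. A gene of the lysosome list is counted but not reported by name here.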

Additional observations from a re-analysis of the deposited data

How the results depend on the processing

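Of 20 alternatives, all kept the direction and the call of A2ML1, CST6, CSTA and CSTB over the monolayers in both ALI groups. The count of inhibitors that rose with differentiation was 4 to 5 with 1 library left out, through CST3, whose log2 fold change was then 0.70 to 1.06 (0.73 on RPKM with either pseudocount, 1.01 with monolayers 2 and 3 summed). CSTB was the 1 gene of the 6 lower on silencing with DESeq2 (-0.93) and without both ALI libraries numbered 2 (-1.01). The direction of LGMN was not fixed: without 1 library it ranged from -0.19 to 0.24 on silencing, -0.22 to 0.21 on differentiation and -0.15 to 0.091 in silenced cells over monolayers. Without both ALI libraries numbered 2 it was -0.12 on silencing and 0.21 on differentiation, and in silenced cells over monolayers it was -0.0018 with limma-voom, -0.0046 with the stricter filter, -0.0061 with the replicate block, and -0.056 and -0.059 on RPKM with pseudocounts of 1 and 0.1. CST6 turned to 0.15 on silencing, and its log2 ratio to LGMN to 0.29, without both ALI libraries numbered 2. On plain library totals the monolayer means of CSTA and LGMN were 74.4 and 39.6 CPM. The cause of these changes was not tested.

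Over all genes, calls on silencing were 137 higher and 280 lower with DESeq2, 5 and 54 on 2 groups, and 280 and 428 without both ALI libraries numbered 2. Higher calls were 45 without a low-count filter, 52 and 46 on RPKM with pseudocounts of 1 and 0.1, and 9 with monolayers 2 and 3 summed. With 1 library left out they were 3 to 92 higher and 25 to 147 lower. Silenced cells over monolayers gave 3372 higher and 3087 lower calls without both ALI libraries numbered 2, 1310 higher with monolayers summed, and 1284 to 2976 higher and 1276 to 2767 lower with 1 library left out. Differentiation gave 1738 to 2780 higher and 1842 to 2699 lower with 1 library left out. The RPKM values shifted the median gene by 0.12 and 0.13 on silencing and by -0.19 and -0.20 on differentiation.

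Among the lists, leaving out 1 library gave 0 to 1 other cystatins, 1 to 2 genes of the CST6 pathway and 0 to 1 lysosomal genes lower on silencing, 0 to 1 kallikreins higher on silencing, 1 to 2 lysosomal genes higher and 1 to 2 of the receptor pair LRP1 and LRPAP1 lower on differentiation. Without both ALI libraries numbered 2, silencing gave 2 lower CST6 pathway genes and 1 higher kallikrein, and differentiation gave 6 lower cysteine cathepsins, 1 higher other cathepsin and 1 lower CST6 pathway gene. Calls over all genes on differentiation in that setting are not given here, so those counts have no background beside them.

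Replicate numbers paired the ALI arms only in part: deviations of libraries with the same number correlated at 0.49, 0.58 and -0.01. Each deviation is from the mean of the 3 libraries of a group, so these correlations depend on each other. A single library that stands apart, such as library 2 in both arms, moves all of them. Silenced library 2 was closest to control library 2, but silenced libraries 1 and 3 were closer to control libraries 3 and 1. In the authors' file names both libraries 2 carry the number 3, and silenced library 3 and control library 1 carry the number 2. Pairing by those numbers was not tested. The replicate block, which used the numbers of the titles, gave 51 higher and 125 lower genes on silencing and called none of the 6.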
